A study of Mus musculus with 2 samples.

Results

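The genes described here are *Mitf*, *Sox10*, *Pax3*, *Tfap2a*, *Tfap2b*, *Lef1*, *Foxd3*, *Sox9* and *Sox5*, which encode transcription factors of the melanoblast and glial lineages. They were chosen by symbol, as 9 of the 28000 genes counted, and not by their measured levels. Earlier results of these data were known when the choice was made. Melanoblasts, the embryonic precursors of pigment cells, and Schwann cell precursors, the glia of growing nerves, both descend from the neural crest. SOX10 and PAX3 activate *Mitf*, whose product drives the pigment genes and is regarded as the master regulator of melanocytes. FOXD3 is known as a repressor of *Mitf* that favours the glial side of the lineage, SOX5 as a modulator of SOX10 activity, and SOX9 as a crest factor that also acts in cartilage and hair follicles.

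The study examined the loss of HIRA, the chaperone that places histone H3.3 into chromatin outside DNA replication, in the pigment lineage of mouse embryos. Trunk skin was taken at E15.5, live tdTomato+ cells were sorted from it by flow cytometry, and the 3′ ends of their transcripts were counted as unique molecular identifiers (UMIs) on the 10x Chromium platform. The control library came from *TyrCre::Hira* wt/wt skin with the tdTomato reporter (HIRA WT) and the other from *TyrCre::Hira* fl/fl skin with the same reporter (HIRA KO), on a mixed background close to C57BL/6J. Both genotypes carried the Cre, which the tyrosinase promoter drives and which also acts in some lineages other than pigment cells, so the reporter marked those cells as well. The study profiled further embryos of each genotype, but the counts read here hold 1 library per genotype, and the labels do not say which embryo each came from. Cells of a library are not replicates of a genotype, so no difference between genotypes was tested.

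The HIRA WT library held 1546 cell barcodes, 7073939 UMIs and a median of 3961 UMIs per barcode. The HIRA KO library held 846 barcodes, 5049514 UMIs and a median of 5152.5 UMIs. The libraries shared 0 barcodes, and 1540 and 828 cells were kept after filtering. Levels are given as UMIs per 1000000 UMIs (CPM) of all cells of a class in a library, and ranges in brackets are 95% intervals (exact Poisson for CPM, Clopper-Pearson for shares of cells, exact conditional binomial for ratios) that cover counting error only.

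The labels were checked first on *Hira*. In melanoblast-like cells *Hira* gave 35 UMIs in HIRA WT, or 13.8 CPM (9.61 to 19.2), and 3 UMIs in HIRA KO, or 3.53 CPM (0.728 to 10.3), and the log2 ratio of HIRA KO to HIRA WT (log2 KO/WT) was −1.97 (−4.31 to −0.30). In glial-like cells it gave 18 and 9 UMIs, with a log2 KO/WT of −0.55, and in mesenchymal-like cells 9 and 17 UMIs, with a log2 KO/WT of 0.42. Over all cells *Hira* gave 82 and 50 UMIs, with a log2 KO/WT of −0.21 (−0.75 to 0.31), and with melanoblast-like cells thinned to 2000 UMIs its levels there were 8.57 and 7.19 CPM. Tags at the 3′ end may lie outside the deleted part of the gene and then do not show the deletion. *Xist*, the RNA of the inactive X chromosome, gave 16822 UMIs in HIRA WT and 23 in HIRA KO, while the Y-linked *Eif2s3y* gave 0 and 220. The HIRA WT library therefore came from female and the HIRA KO library from male cells, and sex and genotype cannot be told apart in any comparison of these libraries. The tdTomato sequence gave 55 and 71 UMIs and Cre 19 and 16, so most sorted cells held no UMI of either transgene.

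Cells were grouped into 20 clusters, with the 9 genes left out of the genes used for clustering, and clusters were named by lists of marker genes that hold none of the 9. The melanoblast-like class held 535 HIRA WT and 139 HIRA KO cells, 34.7% and 16.8% of each library. The glial-like class held 447 and 254 cells (29.0% and 30.7%) and the mesenchymal-like class 230 and 273 (14.9% and 33.0%). Macrophage-like cells, 146 and 36, came next in HIRA WT, and these 4 classes were the ones with at least 20 cells in both libraries. The name of the melanoblast-like class rests on 12 markers, which summed to 8964 CPM in its HIRA WT and 9045 CPM in its HIRA KO cells, with *Dct* the most abundant and *Tyrp1* at 0 in HIRA KO. The 12 glial markers summed to 3990 and 3697 CPM in glial-like cells, led by *Fabp7*, with none at 0.

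*Mitf* had its highest level in melanoblast-like cells, where the intervals of the genotypes overlapped. It gave 478 UMIs in HIRA WT, or 188 CPM (172 to 206), and 172 UMIs in HIRA KO, or 202 CPM (173 to 235). Its log2 KO/WT was 0.10 (−0.16 to 0.36), and 0.41 (−0.03 to 0.84) with each cell thinned to 2000 UMIs. In glial-like cells *Mitf* was at 19.0 CPM (12.9 to 27.0) and 19.3 CPM (12.2 to 28.9), so its melanoblast-like level was 9.92-fold higher than the glial-like level in HIRA WT and 10.5-fold higher in HIRA KO. Mesenchymal-like cells had 32.3 CPM (22.6 to 44.7) and 23.5 CPM (16.6 to 32.5), and macrophage-like cells 29.4 CPM (18.8 to 43.7) and 28.4 CPM (12.3 to 56.0). The macrophage-like class joined a cluster led by *Plac8* and *Cd52*, with *Mitf* at 52.8 and 27.2 CPM, and another led by *Pf4* and *C1qc*, at 20.3 and 29.2 CPM. Their intervals overlapped in both libraries. The order of these lower classes was mesenchymal-like, macrophage-like, glial-like in HIRA WT and macrophage-like, mesenchymal-like, glial-like in HIRA KO, and neighbours in it overlapped. That order rests on few cells: in HIRA WT, 18 mesenchymal-like cells with UMIs of at least 3 of 12 melanoblast markers held 23 of the 36 *Mitf* UMIs, and without cells of that kind the *Mitf* level was 13.9 CPM in mesenchymal-like, 28.8 CPM in macrophage-like and 14.6 CPM in glial-like cells. *Mitf* is also known to act in mast cells and in the macrophage lineage, and mast-cell-like cells of HIRA WT had 37.0 CPM (18.5 to 66.2), while adipocyte-like cells had 10.8 CPM (3.52 to 25.3).

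*Sox10*, which acts in both lineages, was high in both. Melanoblast-like cells had 702 UMIs in HIRA WT, or 277 CPM (257 to 298), and 264 in HIRA KO, or 311 CPM (274 to 350). Glial-like cells had 562 and 447 UMIs, or 344 CPM (317 to 374) and 374 CPM (340 to 410). The glial-like level of *Sox10* was above the melanoblast-like one in both libraries, with log2 ratios of melanoblast-like to glial-like cells of −0.32 (−0.48 to −0.15) in HIRA WT and −0.27 (−0.49 to −0.05) in HIRA KO. Its log2 KO/WT was 0.17 (−0.04 to 0.37) in the melanoblast-like class, or 0.51 (0.18 to 0.83) with thinned cells, and 0.12 (−0.06 to 0.30) in the glial-like class. The lower classes had 32.3 and 31.8 CPM (mesenchymal-like) and 23.2 and 28.4 CPM (macrophage-like), which did not differ beyond counting error. Cells with melanoblast markers held 27 of the 36 mesenchymal-like *Sox10* UMIs in HIRA WT and 28 of the 50 in HIRA KO, and without them the HIRA WT level was 9.62 CPM and the log2 KO/WT 0.64 (−0.53 to 1.95) in place of −0.02.

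*Pax3*, a paired-box factor of early melanoblasts, followed the same order of classes in both libraries: melanoblast-like, glial-like, then mesenchymal-like and macrophage-like cells, which overlapped. Melanoblast-like cells had 838 UMIs in HIRA WT, or 330 CPM (308 to 353), and 243 in HIRA KO, or 286 CPM (251 to 324), with a log2 KO/WT of −0.21 (−0.42 to −0.00). Glial-like cells had 184 UMIs, or 113 CPM (97.1 to 130), and 72 UMIs, or 60.3 CPM (47.2 to 75.9). The glial-like intervals of the libraries did not overlap, and the log2 ratio was −0.90 (−1.32 to −0.50). In macrophage-like cells *Pax3* gave 17 UMIs, or 20.8 CPM (12.1 to 33.3), and 1 UMI, or 3.55 CPM (0.0899 to 19.8). In HIRA WT, 6 of the 146 macrophage-like cells held UMIs of at least 3 melanoblast markers and 10 of the 17 *Pax3* UMIs, and without them the level was 9.61 CPM.

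The AP-2 factors TFAP2A and TFAP2B act in the neural crest and, later, with MITF at pigment genes. *Tfap2a* had its highest level of the 4 classes in melanoblast-like cells, with 298 UMIs or 117 CPM (105 to 132) in HIRA WT and 127 UMIs or 149 CPM (125 to 178) in HIRA KO, with a log2 KO/WT of 0.35 (0.04 to 0.65). Glial-like cells had 20.2 CPM (13.9 to 28.4) and 17.6 CPM (10.9 to 26.9), which overlapped the mesenchymal-like intervals in both libraries. *Tfap2b* was present in both lineages. Its melanoblast-like level was 149 CPM (134 to 164) from 377 UMIs in HIRA WT and 235 CPM (204 to 270) from 200 UMIs in HIRA KO, and its glial-like level 134 CPM (116 to 153) and 123 CPM (104 to 145). At full depth the melanoblast-like level of *Tfap2b* was thus the higher in both libraries. Its interval overlapped the glial-like one in HIRA WT and not in HIRA KO, a difference between the libraries that was not tested. With thinned cells the glial-like value was the higher in HIRA WT, at 130 CPM in melanoblast-like and 156 CPM in glial-like cells. In HIRA KO the melanoblast-like value stayed the higher, at 230 CPM in melanoblast-like and 142 CPM in glial-like cells. No intervals are given for these thinned values, and whether they differ beyond counting error was not tested. The melanoblast-like log2 ratio of *Tfap2b*, 0.66 (0.41 to 0.91), was the largest of the 8 members counted in that class. In mesenchymal-like cells *Tfap2a* was at 21.5 CPM (13.8 to 32.0) and 10.8 CPM (6.30 to 17.3) and *Tfap2b* at 13.4 and 10.8 CPM. Macrophage-like cells of HIRA WT had 11.0 CPM of *Tfap2a* and 17.1 CPM (9.36 to 28.7) of *Tfap2b*, while those of HIRA KO had 1 and 0 UMIs, the latter allowing up to 10.6 CPM. The same 6 macrophage-like cells held 10 of the 14 *Tfap2b* UMIs, and without them its level was 5.49 CPM. For both genes these lower classes overlapped each other.

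Keratinocytes also express AP-2 factors, and keratinocyte markers were higher in the HIRA KO library. The 11 keratinocyte markers summed to 74.1 CPM in HIRA WT and 576 CPM in HIRA KO melanoblast-like cells, with *Krt10* the most abundant in both and *Trp63* at 0 in HIRA WT, *Epcam* and *Trp63* in HIRA KO. In keratinocyte-like cells, 12 in HIRA WT and 81 in HIRA KO, *Tfap2b* was at 193 CPM (110 to 313) and 73.6 CPM (55.6 to 95.6), and *Tfap2a* at 48.2 CPM (13.1 to 123) and 73.6 CPM (55.6 to 95.6). The HIRA WT *Tfap2b* value rests on 16 UMIs. The 12 melanoblast markers summed to 1747 CPM in these HIRA WT cells and 279 CPM in these HIRA KO cells. *Dct* led them in both, with *Tyrp1* and *Gpr143* at 0. The part of melanoblast RNA in the keratinocyte-like values was not tested. In HIRA KO the keratinocyte-like level of each gene was below its melanoblast-like level. The 12 mesenchymal markers were, like the keratinocyte markers, higher in HIRA KO melanoblast-like cells, at 166 and 696 CPM, led by *Col1a2*, with none at 0. The part of keratinocyte and mesenchymal RNA in the *Tfap2b* values was not tested.

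*Lef1*, a partner of β-catenin in Wnt signalling, had a different highest class in each library, and neither stood clear of the next beyond counting error. In HIRA WT the mesenchymal-like level of 46.6 CPM (34.8 to 61.1), the glial-like level of 31.3 CPM (23.3 to 41.1) and the melanoblast-like level of 26.4 CPM (20.5 to 33.5) each overlapped the next, and macrophage-like cells had 1 UMI. In HIRA KO melanoblast-like cells had 24.7 CPM (15.3 to 37.8), and mesenchymal-like cells 15.9 CPM (10.3 to 23.5) and glial-like cells 15.9 CPM (9.57 to 24.8). All neighbours in the HIRA KO order overlapped, macrophage-like cells with 4 UMIs included. The glial-like log2 ratio of *Lef1*, from 51 and 19 UMIs, was −0.97 (−1.82 to −0.19), but −0.38 with thinned cells. The melanoblast-like ratio was −0.10 (−0.88 to 0.63).

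*Foxd3* and *Sox5* were highest in glial-like cells. *Foxd3* had 199 UMIs or 122 CPM (106 to 140) in HIRA WT and 192 UMIs or 161 CPM (139 to 185) in HIRA KO glial-like cells, with a log2 KO/WT of 0.40 (0.10 to 0.69). Its melanoblast-like level was 17.3 CPM (12.6 to 23.3) and 22.4 CPM (13.5 to 34.9). The glial-like level of *Foxd3* was thus 7.03-fold higher than the melanoblast-like one in HIRA WT and 7.19-fold higher in HIRA KO. *Sox5* had 227 UMIs or 139 CPM (122 to 158) in HIRA WT and 148 UMIs or 124 CPM (105 to 146) in HIRA KO glial-like cells, against 36 UMIs or 14.2 CPM (9.94 to 19.6) and 17 UMIs (11.6 to 32.0 CPM) in melanoblast-like cells. The genotypes overlapped for *Sox5* in both classes, with log2 ratios of −0.17 (−0.48 to 0.14) and 0.49 (−0.43 to 1.36). Outside these lineages both genes were scarce. In mesenchymal-like cells *Foxd3* had 2 and 10 UMIs and *Sox5* 7 and 5, and in macrophage-like cells *Foxd3* had 4 and 0 UMIs and *Sox5* 2 and 0.

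*Sox9* was nearly absent from melanoblast-like cells, with 1 UMI in HIRA WT, or 0.394 CPM, and 0 UMIs in HIRA KO, which allows up to 3.53 CPM. Glial-like cells had 30 UMIs, or 18.4 CPM (12.4 to 26.2), and 16 UMIs, or 13.4 CPM (7.65 to 21.7). Mesenchymal-like cells had 15.2 CPM (8.88 to 24.4) and 19.1 CPM (12.9 to 27.3), which overlapped the glial-like levels in both libraries. Macrophage-like cells had 2 *Sox9* UMIs in HIRA WT and 1 in HIRA KO. Higher values were found in the adipocyte-like cluster, with 41.2 CPM (24.8 to 64.3) from 45 HIRA WT cells and 117 CPM (60.7 to 205) from 12 UMIs in 8 HIRA KO cells, and in keratinocyte-like cells, with 48.2 CPM (13.1 to 123) in HIRA WT and 35.5 CPM (23.4 to 51.7) in HIRA KO. Within the mesenchymal-like class, the cluster led by *Mfap5* and *Ly6a* had 54.2 CPM (17.6 to 127) and 60.7 CPM (33.2 to 102) of *Sox9*, from 5 and 14 UMIs.

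**Figure D1:**
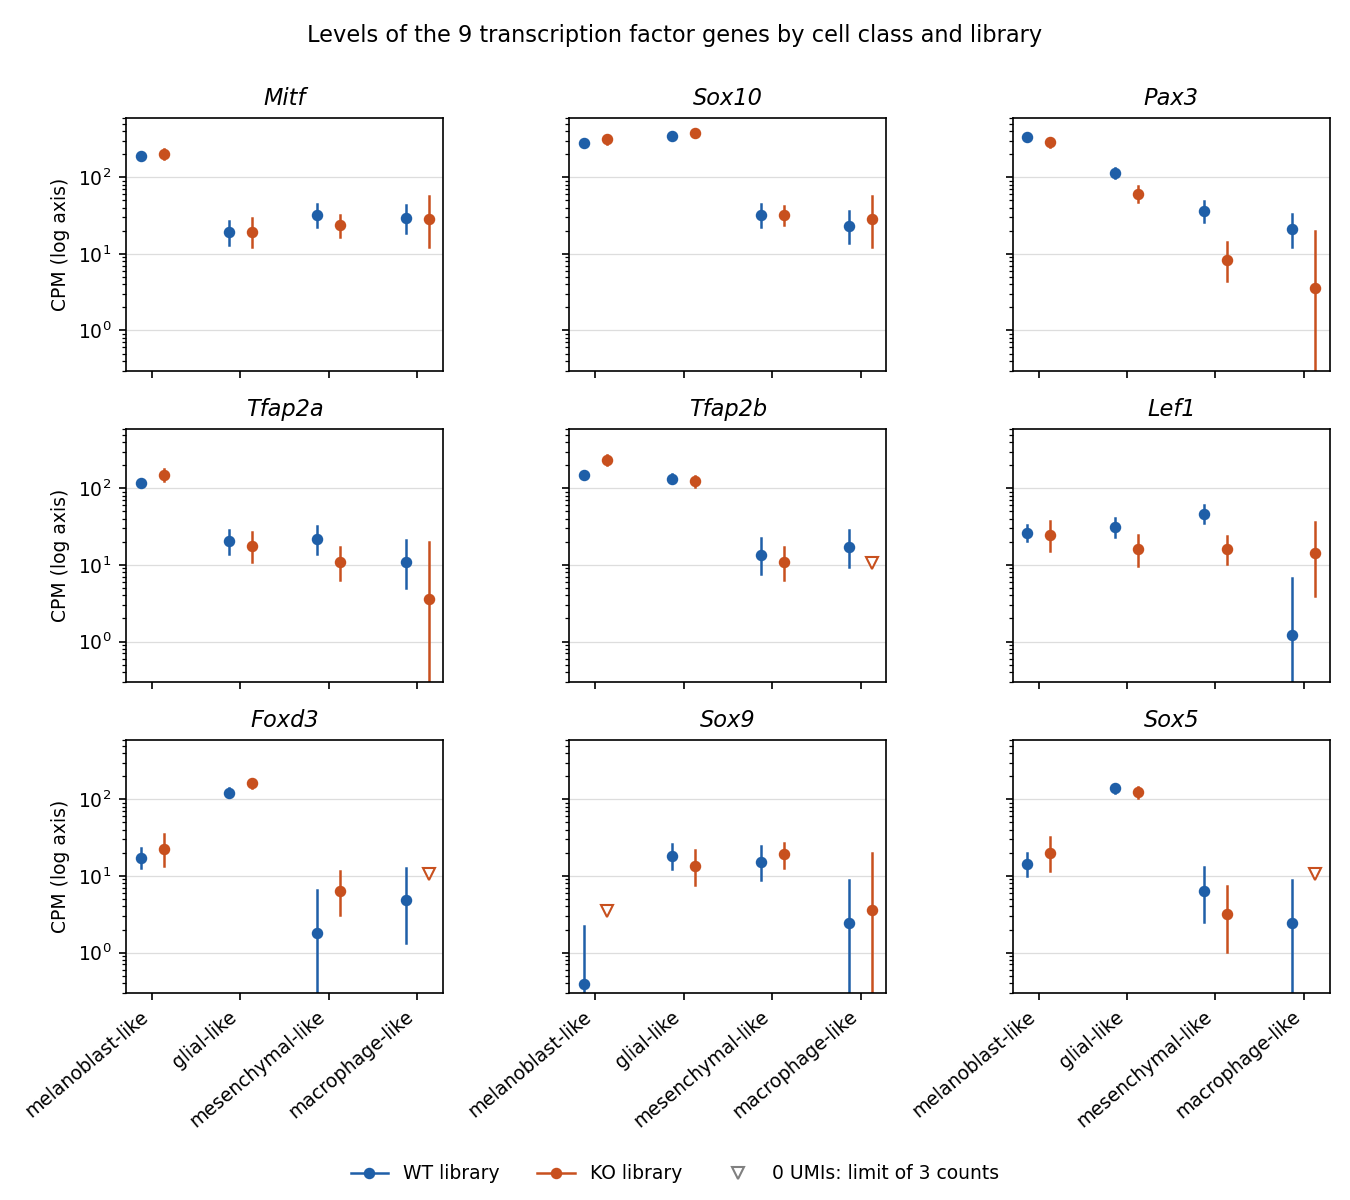
Level of each of the 9 genes in CPM (log axis) in the classes with at least 20 cells in both libraries, HIRA WT and HIRA KO side by side, with 95% Poisson intervals of the counting error; an open triangle marks 0 UMIs at the limit of 3 counts, and intervals that reach the bottom of an axis run lower than drawn. *Mitf* and *Tfap2a* are high in melanoblast-like cells, *Foxd3* and *Sox5* in glial-like cells, and *Sox10* in both.

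The classes were compared within each library to ask how the 9 genes divide the melanoblast-like from the glial-like cells. In HIRA WT, 3 of the 9 were past 2-fold towards melanoblast-like cells, where 6.74% of 9184 genes were, and 3 towards glial-like cells, where 17.2% were. The melanoblast-like side held *Mitf* with a log2 ratio of 3.31, *Tfap2a* with 2.54 and *Pax3* with 1.55, the glial-like side *Foxd3* with −2.81, *Sox5* with −3.29 and *Sox9* with −5.54 (−10.89 to −2.95), and *Sox10*, *Tfap2b* and *Lef1* were within 2-fold. In HIRA KO, 8 genes had at least 20 UMIs, and 3 of them were past 2-fold towards melanoblast-like cells (5.46% of 7550 genes) and 2 towards glial-like cells (18.5%). *Mitf*, *Tfap2a* and *Pax3* were again the first, at log2 ratios of 3.39, 3.09 and 2.25, and *Foxd3* and *Sox5* the second, at −2.85 and −2.63. *Tfap2b* was at 0.15 in HIRA WT and 0.94 in HIRA KO. The genes were chosen as lineage factors, so these sides are a description.

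The next comparison asked how the level of each gene within a class differed between HIRA KO and HIRA WT. In melanoblast-like cells 0 of the 8 genes with at least 20 UMIs were past 2-fold, where 3.82% of 8140 genes were past it upwards and 4.23% downwards, and the median log2 ratio was 0.26 against −0.01 over all genes. In glial-like cells 0 of 9 were past 2-fold, where 3.85% of 8590 genes were higher and 2.48% lower, with a median of −0.17 against −0.01. With TMM factors the glial-like count was 1, *Lef1* at −1.01, and with thinned cells it was 2, *Pax3* at −1.11 (−1.76 to −0.50) and *Sox9* at −1.19 (−2.97 to 0.28), while *Lef1* was then at −0.38 (−1.50 to 0.66). In mesenchymal-like cells 0 of 7 were higher, against 6.17% of 8292 genes, and 2 were lower, against 2.87%, namely *Pax3* and *Lef1*, with a median of −0.45 against −0.00. Without the mesenchymal-like cells that hold melanoblast markers the lower count was 1, *Lef1*, with *Pax3* at −0.38. No share of all genes is given for the counts with TMM factors, with thinned cells or without marker cells, so these are not read as a result about the members. *Pax3* and *Lef1* were the members with the lowest ratios in both glial-like and mesenchymal-like cells.

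**Figure D2:**
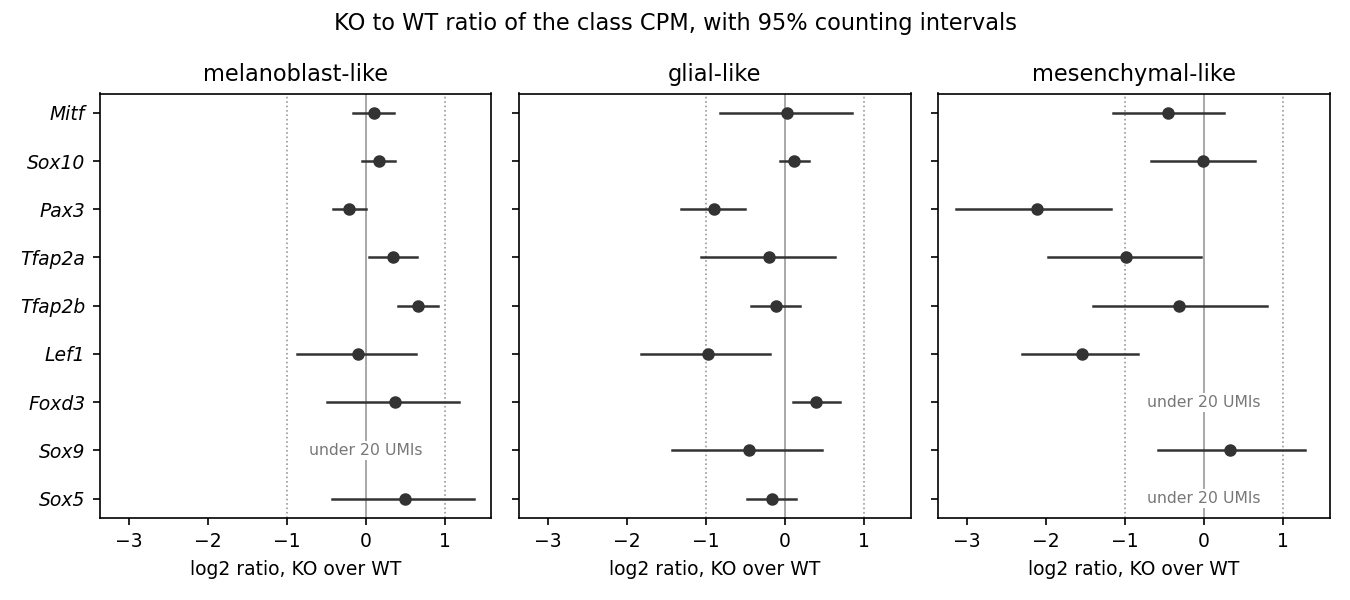
Log2 ratio of HIRA KO to HIRA WT for each of the 9 genes in each of the 3 largest classes, with 95% intervals of the counting error, dotted lines at 2-fold and no point for genes with under 20 UMIs in a class. *Pax3* and *Lef1* lie past 2-fold in mesenchymal-like cells (*Pax3* at −0.38 without cells that hold melanoblast markers), and *Tfap2b* is the highest in melanoblast-like cells among genes with at least 20 UMIs there.

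The glial-like class joined 5 clusters, and the lower *Pax3* level of HIRA KO was found in the largest of them. In the cluster led by *Pcdh20* and *Gap43*, with 177 and 91 cells, *Pax3* was at 210 CPM in HIRA WT and 82.0 CPM in HIRA KO, from 117 and 28 UMIs, with a log2 KO/WT of −1.36 (−2.01 to −0.75). In the cluster led by *Pcdh20*, *Fabp7* and *Cdc25c*, with 66 and 32 cells, *Pax3* was at 127 and 137 CPM, with a log2 KO/WT of 0.11 (−0.70 to 0.89). The cluster led by *1500015O10Rik* and *Sostdc1* had 43.7 and 31.5 CPM, and the cluster led by *Gm29865*, *Grb14* and *Gfra3* had 67.4 and 98.3 CPM. In the cluster led by *Pou3f1*, a factor of Schwann cells on the way to myelination, *Pax3* gave 0 UMIs in HIRA WT, which allows up to 18.5 CPM, and 12.4 CPM in HIRA KO. That last cluster made up 9.84% of the glial-like cells in HIRA WT and 23.6% in HIRA KO, so the class level of *Pax3* also rests on different shares of clusters.

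*Lef1* had its highest glial-like values of HIRA WT in the clusters where *Pax3* was highest. In the *Pcdh20* and *Gap43* cluster it was at 57.4 and 17.6 CPM, from 32 and 6 UMIs, with a log2 KO/WT of −1.71 (−3.26 to −0.43), and in the *Cdc25c* cluster at 50.8 and 49.2 CPM. The *Sostdc1* cluster had 1 UMI of *Lef1* in each library, the *Pou3f1* cluster 3 in each, at 18.5 and 9.27 CPM, and the *Gfra3* cluster 1 and 0. *Tfap2b* was also high in the *Pcdh20* and *Gap43* cluster, at 237 and 272 CPM, and low in the *Sostdc1* cluster, at 34.9 and 31.5 CPM, with no lower value in HIRA KO in either beyond counting error. *Sox10* varied less, from 231 CPM in the *Sostdc1* cluster to 410 CPM in the *Gfra3* cluster in HIRA WT, and from 249 to 475 CPM in the same clusters in HIRA KO.

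*Foxd3* and *Sox5* were both highest among the glial-like clusters of HIRA WT in the *Pcdh20* and *Gap43* cluster, at 165 and 229 CPM. *Foxd3* was at 67.7 CPM in HIRA WT and 133 CPM in HIRA KO in the *Sostdc1* cluster, with a log2 KO/WT of 0.98 (0.25 to 1.71). *Sox5* was at 84.2 and 278 CPM in the *Gfra3* cluster, from 15 and 17 UMIs, with a log2 KO/WT of 1.72 (0.64 to 2.83), and at 229 and 164 CPM in the *Pcdh20* and *Gap43* cluster, with a log2 KO/WT of −0.49 (−0.97 to −0.02). The class-wide values of *Sox5* thus joined clusters with ratios of opposite sign. *Sox9* had few UMIs in each glial-like cluster, with 50.5 CPM from 9 UMIs and 32.8 CPM from 2 UMIs in the *Gfra3* cluster, 26.2 and 31.5 CPM in the *Sostdc1* cluster and 12.5 and 11.7 CPM in the *Pcdh20* and *Gap43* cluster.

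The glial-like *Pax3* and *Lef1* values were set beside the traces of melanoblast RNA in that class. The 12 melanoblast markers, all detected in both libraries, summed to 238 CPM in HIRA WT and 140 CPM in HIRA KO glial-like cells, with a log2 KO/WT of −0.77, with *Ptgds* the most abundant. The keratinocyte markers summed to 88.3 and 635 CPM there, led by *Krt10*, with *Epcam* and *Dsp* at 0 in HIRA WT, and the mesenchymal markers to 2723 and 3693 CPM, led by *Col1a2*, with none at 0; the part of these RNAs was not tested. Only 5 HIRA WT and 2 HIRA KO glial-like cells held UMIs of at least 3 of the 12 melanoblast markers. Without these cells *Pax3* was at 108 and 60.3 CPM, with a log2 KO/WT of −0.84, and the ratio of *Lef1* was −1.16.

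The mesenchymal-like class differed in make-up between the libraries. In HIRA WT the cluster led by *Crabp1* and *Twist2* held 183 of its 230 cells, and in HIRA KO the cluster led by *Mfap4* and *C1qtnf3* held 130 of its 273, against 25 in HIRA WT. *Lef1*, known in the dermis beneath hair follicles, was at 54.1 CPM (40.1 to 71.3) and 36.5 CPM (23.4 to 54.3) in the *Crabp1* cluster, with a log2 KO/WT of −0.57 (−1.33 to 0.16). The *Mfap4* cluster had 0 *Lef1* UMIs in both libraries, which allows up to 30.5 CPM in HIRA WT and 4.39 CPM in HIRA KO. The class-wide *Lef1* values of 46.6 and 15.9 CPM, with a log2 KO/WT of −1.55 (−2.30 to −0.84), therefore compare different mixtures of these clusters.

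*Pax3* in mesenchymal-like cells came from few cells. The class had 40 UMIs in HIRA WT, or 35.9 CPM (25.6 to 48.8), and 13 in HIRA KO, or 8.27 CPM (4.41 to 14.1), with a log2 KO/WT of −2.12 (−3.14 to −1.18). In HIRA WT, 18 of the 230 cells held UMIs of at least 3 of the 12 melanoblast markers, and these cells held 35 of the 40 *Pax3* UMIs, as well as 27 of the 36 *Sox10*, 23 of the 36 *Mitf* and 14 of the 15 *Tfap2b* UMIs. In HIRA KO, 10 of the 273 cells met the same criterion and held 7 of the 13 *Pax3* UMIs. Without them *Pax3* was at 5.35 CPM in HIRA WT and 4.10 CPM in HIRA KO, with a log2 KO/WT of −0.38 (−2.36 to 1.67), and *Lef1* at 42.8 and 16.4 CPM, with a log2 KO/WT of −1.38. *Tfap2b*, at −0.31 (−1.40 to 0.79) in the whole class, was then at 1.07 and 4.78 CPM, with a log2 KO/WT of 2.16 (−0.80 to 7.65). With cells thinned to 2000 UMIs its log2 KO/WT in the whole class was −1.30. The melanoblast markers summed to 580 CPM in HIRA WT and 277 CPM in HIRA KO mesenchymal-like cells, led by *Ptgds* and *Dct*, with *Gpr143* at 0 in both and *Tyrp1* at 0 in HIRA KO. Most mesenchymal-like *Pax3* UMIs thus lay in cells with melanoblast markers, while the wide interval without those cells still includes the whole-class ratio. The source of the *Pax3* difference was not tested. Without the 4 HIRA WT and 2 HIRA KO mesenchymal-like cells that Scrublet called doublets, the log2 KO/WT of *Pax3* was −1.91 (−3.07 to −0.86).

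The melanoblast-like class joined 4 clusters. The cluster led by *Pmel* and *Slc24a5* held 109 HIRA WT and 6 HIRA KO cells, so it may stand for a library as much as for a cell state. In the cluster led by *Mt2* and *Ptgds*, with 236 and 89 cells, *Mitf* was at 151 and 180 CPM, and in the cluster led by *Pbk* and *Hist1h2ae*, with 128 and 27 cells, at 210 and 233 CPM. *Pax3* showed the opposite order of those clusters, with 387 and 300 CPM in the *Mt2* cluster and 293 and 272 CPM in the *Pbk* cluster. In the *Mt2* cluster its log2 ratio was −0.37 (−0.66 to −0.09). The *Tfap2b* value was higher in HIRA KO in each of the 4 clusters, with log2 ratios of 0.71 (0.36 to 1.06) in the *Mt2* cluster and 0.58 (0.08 to 1.06) in the *Pbk* cluster. In the *Pmel* and *Slc24a5* cluster, at 0.30 (−1.37 to 1.59), and in the cluster led by *Cenpa* and *Dct*, at 0.50 (−0.38 to 1.34), the intervals include 0.

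**Figure D3:**
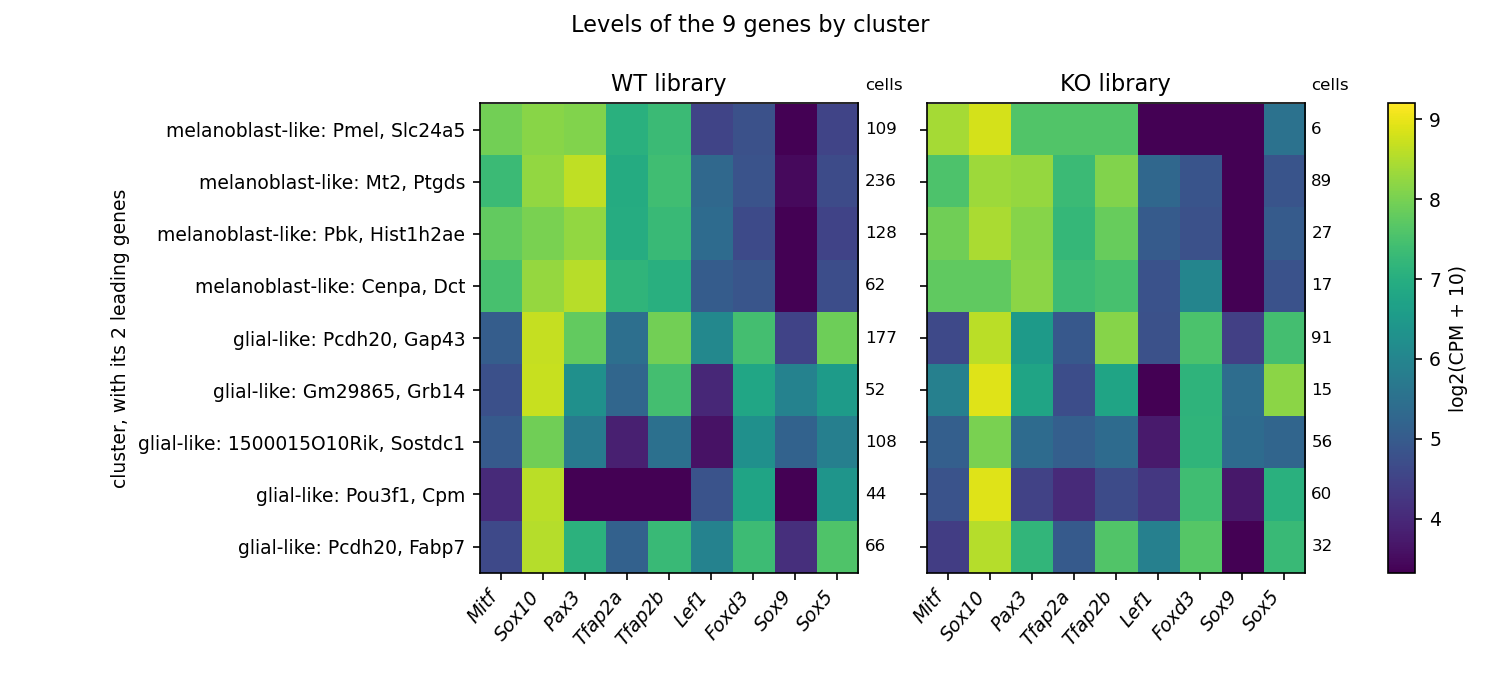
Level of each of the 9 genes as a colour, log2(CPM + 10), in each cluster of the melanoblast-like and glial-like classes (named by its leading pair of genes), HIRA WT left and HIRA KO right, with the number of cells beside each cluster and no intervals drawn. *Pax3* and *Lef1* are lower in HIRA KO in the glial-like cluster led by *Pcdh20* and *Gap43* (210 against 82.0 CPM and 57.4 against 17.6 CPM).

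Single cells were read next, with macrophage-like cells as a class that should lack the crest factors other than *Mitf*. At least 1 *Sox10* UMI was found in 69.7% of HIRA WT and 79.1% of HIRA KO melanoblast-like cells and in 66.9% and 80.7% of glial-like cells, against 8.22% and 22.2% of macrophage-like cells. The median depths were 4343 and 5654 UMIs per melanoblast-like, 3372 and 4208 per glial-like and 4850.5 and 6796.5 per macrophage-like cell. With each cell thinned to 2000 UMIs, the *Sox10* shares were 42.3% and 51.8% in melanoblast-like, 47.4% and 54.5% in glial-like and 2.21% and 8.33% in macrophage-like cells. After thinning, the *Sox10* shares of both lineages were still above the macrophage-like ones. *Pax3* was found in 73.6% and 80.6% of melanoblast-like cells, or 48.2% and 41.7% after thinning, so the order of the libraries depended on depth. In glial-like cells the thinned *Pax3* shares were 21.0% and 10.6%, against 2.21% and 0 of 36 in macrophage-like cells, the latter allowing up to 8.33% of cells with a UMI.

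*Mitf* was found in 50.8% and 59.7% of melanoblast-like cells, 25.9% and 32.4% after thinning. In glial-like cells the thinned *Mitf* shares were 3.91% and 4.88%, beside 5.88% and 11.1% in macrophage-like cells. *Mitf* is also known to act in the macrophage lineage, so that class gives no background for it. *Tfap2b* UMIs were found in 18.1% and 31.7% of thinned melanoblast-like cells and in 22.7% and 22.0% of thinned glial-like cells, against 1.47% in HIRA WT macrophage-like cells. For *Foxd3* the thinned glial-like shares were 21.3% and 28.5%, and for *Sox5* 22.7% and 19.9%, with no thinned macrophage-like cell holding either gene. *Sox9* was found in 4.16% and 2.03% of thinned glial-like cells, against 0 of 136 and 1 of 36 thinned macrophage-like cells (2.78% in HIRA KO), so the HIRA KO share was not above that background.

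How often a pair of the factors shared a cell was also counted. After thinning, *Sox10* and *Pax3* were found together in 18.9% of HIRA WT and 23.0% of HIRA KO melanoblast-like cells (52.0% and 64.0% at full depth), against 0.735% and 0 of 36 macrophage-like cells. Among thinned melanoblast-like cells, *Pax3* was found in 44.6% with and 50.8% without a *Sox10* UMI in HIRA WT. In HIRA KO these shares were 44.4% and 38.8%. *Pax3* and *Mitf* shared 14.7% and 16.5% of thinned melanoblast-like cells and *Sox10* and *Mitf* 11.4% and 15.8%. In thinned HIRA WT melanoblast-like cells *Mitf* was found in 27.0% of cells with and 25.1% of cells without a *Sox10* UMI, and in HIRA KO in 30.6% and 34.3%. With and without a *Pax3* UMI, *Mitf* was found in 30.4% and 21.7% of thinned HIRA WT and in 39.7% and 27.2% of thinned HIRA KO melanoblast-like cells. At full depth *Mitf* was found in 54.2% of HIRA WT cells with and 43.2% without a *Sox10* UMI, and in 60.9% and 55.2% of HIRA KO cells. Whether these shares differ was not tested. In thinned glial-like cells *Sox10* and *Foxd3* shared 10.8% and 16.7%, *Sox10* and *Sox5* 11.5% and 11.0%, and *Foxd3* and *Sox5* 6.11% and 7.32%. A melanoblast-like cell held UMIs of a median of 3 of the 9 genes in HIRA WT and 4 in HIRA KO, which became 2 in both after thinning.

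The genes with profiles most like each factor were sought over the 17 clusters with at least 30 cells, among 5713 genes. The points share libraries and differ in depth, so Pearson r is a description. *Mitf* was most like *Tyr* (r = 0.968), the gene of the key enzyme of melanin synthesis, then *Mcoln3* (0.959) and *Rapgef4* (0.955). *Sox10* was most like *Erbb3* (0.960), the neuregulin receptor gene of crest cells and glia, then *Wdfy1* (0.953) and *Tspan7* (0.949). *Pax3* was most like *Fam178b* (0.972), *Npy* (0.932) and *Tubb3* (0.916). *Tfap2a* was most like *Bace2* (0.899), *Npnt* (0.898) and *Slc24a5* (0.883), which encodes a melanosome ion exchanger, and *Tfap2b* was most like *Tubb3* (0.904), *Pax3* (0.900) and *Fam178b* (0.883). *Foxd3* and *Sox5* were each the gene most like the other (0.970), followed by *Phactr1* (0.957) and *Afap1l2* (0.955) for *Foxd3* and by *Akr1b8* and *Fabp7* (both 0.956) for *Sox5*. For *Lef1* the nearest were *Cnbp* (0.815), *Axin2* (0.811), a feedback gene of Wnt signalling, and *Srsf2* (0.801). *Sox9* had under 200 UMIs in all and was left out.

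Targets and relatives of the factors were read from 4 further lists. Of 12 pigment genes under MITF and SOX10, all had at least 20 UMIs in melanoblast-like cells, 0 were past 2-fold higher and 1 was lower, against 3.82% and 4.23% of all genes, with a median log2 ratio of −0.03. *Dct*, at 3051 and 2904 CPM, *Pmel*, at 1434 and 1386 CPM, and *Mlana*, at 634 and 580 CPM, led the list, and 9 of its genes were also markers that named the class. The lower gene was *Tyrp1*, which encodes a melanosome protein, with 60 UMIs or 23.7 CPM (18.0 to 30.4) in HIRA WT and 0 in HIRA KO, which allows up to 3.53 CPM, and the upper end of the interval of its log2 KO/WT was −2.40. In glial-like cells *Tyrp1* had 1 UMI in HIRA WT and 5 in HIRA KO, or 0.613 and 4.19 CPM. In glial-like cells 3 of the 7 pigment genes counted were lower, where 2.48% of all genes were (*Tyr*, *Mlana* and *Kit*, with log2 ratios of −1.21, −1.38 and −1.33) and the median was −0.80. In mesenchymal-like cells 2 of 8 were lower, against 2.87% of all genes (*Slc45a2* at −1.08 and *Kit* at −1.68), with a median of −0.80. Those medians stand beside lower sums of melanoblast markers in the same classes of HIRA KO, whose part was not tested.

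Of 12 glial genes under SOX10, 6 of which were also glial markers, 0 of 12 were past 2-fold in glial-like cells, with a median log2 ratio of −0.09. Of all genes there, 3.85% were higher and 2.48% lower. *Fabp7*, which encodes a fatty acid binding protein, was at 921 and 855 CPM there. In melanoblast-like cells *Fabp7* had 374 UMIs in HIRA WT, or 147 CPM (133 to 163), and 39 UMIs in HIRA KO, or 45.9 CPM (32.6 to 62.7), with a log2 KO/WT of −1.68 (−2.20 to −1.21), and *Cnp* had 24 and 3 UMIs, with a log2 KO/WT of −1.42 (−3.80 to 0.30). The glial markers as a whole summed to 337 and 235 CPM in melanoblast-like cells, led by *Fabp7* in HIRA WT, with *Dhh* at 0 in HIRA WT and *Mbp* and *Cdh6* at 0 in HIRA KO, and their part was not tested. In mesenchymal-like cells *S100b* was higher, with 17 and 72 UMIs and a log2 KO/WT of 1.59 (0.81 to 2.44), as 1 of 7 against 6.17% of all genes, and the median was 0.73. The glial markers summed to 193 and 301 CPM there, led by *Gap43* in both, with *Dhh* at 0 in HIRA WT and *Cdh6* at 0 in HIRA KO, and their part was not tested either.

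Of 16 other transcription factors of the neural crest, 0 of the 6 counted in melanoblast-like cells were past 2-fold, with a median of 0.21. Of all genes there, 3.82% were higher and 4.23% lower. In glial-like cells 2 of 9 were higher, against 3.85% of all genes, with a median of 0.09. *Pou3f1*, itself a marker that named the class, was at 194 and 417 CPM, from 316 and 498 UMIs, with a log2 KO/WT of 1.11 (0.90 to 1.31), beside the larger share of the *Pou3f1* cluster in HIRA KO. *Egr2*, a regulator of myelin genes, had 9 and 14 UMIs and a log2 KO/WT of 1.09 (−0.22 to 2.48). In mesenchymal-like cells 1 of 10 was higher and 1 lower, against 6.17% and 2.87% of all genes, with a median of −0.36. The higher gene was *Pou3f1*, with 1 and 21 UMIs and a log2 KO/WT of 3.90 (1.26 to 9.27), and the lower *Zic1*, with 44 and 23 UMIs and a log2 KO/WT of −1.43 (−2.22 to −0.67). *Zeb2*, at 915 and 783 CPM, *Sox4*, at 368 and 398 CPM, and *Id2*, at 354 and 230 CPM, led the list in glial-like cells of HIRA WT, while in HIRA KO *Pou3f1* was above *Sox4* and *Id2*.

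The 15 paralogs of the factors were mostly too low to count. In melanoblast-like cells 6 were counted, with a median of 0.19, and 1 was higher, against 3.82% of all genes. This was *Tfe3*, a relative of *Mitf*, with 20 and 14 UMIs and a log2 KO/WT of 1.06 (−0.03 to 2.12). In glial-like cells 1 of 7 was higher, against 3.85% of all genes, namely *Sox6*, a relative of *Sox5*, with 7 and 13 UMIs and a log2 KO/WT of 1.34 (−0.09 to 2.91), and the median was 0.06. Both intervals include 0. In mesenchymal-like cells 0 of 4 were past 2-fold, against 6.17% of all genes higher and 2.87% lower, with a median of 0.44. *Tcf7l2*, at 73.7 and 70.6 CPM, *Sox6*, at 59.1 and 67.1 CPM, and *Tcf7*, at 15.4 and 17.6 CPM, led the list in melanoblast-like cells.

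The positions of the genes are those of GENCODE M21 on GRCm38. *Mitf* (ENSMUSG00000035158) lies on chromosome 6 from 97807052 to 98021349 on the + strand and *Sox5* (ENSMUSG00000041540) on the same chromosome from 143828425 to 144781977 on the − strand. *Pax3* (ENSMUSG00000004872) and *Tfap2b* (ENSMUSG00000025927) share chromosome 1, from 78101267 to 78197134 on the − strand and from 19208914 to 19238576 on the + strand. The other members lie on chromosomes of their own. *Sox10* (ENSMUSG00000033006) is on chromosome 15 from 79154908 to 79165240 (−), *Tfap2a* (ENSMUSG00000021359) on chromosome 13 from 40715302 to 40738376 (−) and *Lef1* (ENSMUSG00000027985) on chromosome 3 from 131110471 to 131224356 (+). *Foxd3* (ENSMUSG00000067261), the shortest span, is on chromosome 4 from 99656299 to 99658622 (+) and *Sox9* (ENSMUSG00000000567) on chromosome 11 from 112782224 to 112787760 (+). No 2 of the 9 overlap. On the same strand *Lef1* and *Foxd3* each overlap 1 other annotated gene and *Sox5* overlaps 2, and which of the overlapping genes a tag came from was not tested.

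*Mitf* is known for several promoters, the most downstream of which drives the isoform of melanocytes, and that promoter is shown because other members of the set, SOX10, PAX3 and LEF1, are known to act on it. RefSeq promoter windows of 250 bases were matched for 6 of the 9 members, 12 windows in all, of which 3 belong to *Mitf*. They were searched on both strands for TGACGTCA (cAMP response element), CTTTGAT (LEF/TCF), CATGTG (a core of the E-box bound by MITF), ACAATG (SOX) and GCCNNNGGC (AP-2). The window at chr6:97991533-97991782 (RefSeq, GRCm38.p6, + strand), the most downstream of the *Mitf* windows, held the first and the second of these motifs, shown in capitals.
Mitf: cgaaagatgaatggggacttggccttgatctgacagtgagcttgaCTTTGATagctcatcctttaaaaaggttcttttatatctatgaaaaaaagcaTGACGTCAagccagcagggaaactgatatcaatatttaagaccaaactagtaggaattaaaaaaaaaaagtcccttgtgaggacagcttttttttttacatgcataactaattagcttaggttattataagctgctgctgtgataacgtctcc
The motif CTTTGAT lies at bases −205 to −199 and TGACGTCA at −153 to −146, counted back from the first base after the window. Of 32536 promoter windows of the same length, 3.21% held CTTTGAT and 1.56% held TGACGTCA, while CATGTG was in 12.3%, ACAATG in 10.5% and GCCNNNGGC in 13.8%. The other *Mitf* windows held none of the 5 motifs, the *Foxd3* window held TGACGTCA, and 1 of 4 *Lef1* windows and the *Sox5* window held ACAATG. A match describes the letters of a window, and counts of 3′ ends do not tell the promoters of *Mitf* apart.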

How the data were processed

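The authors counted UMIs with Cell Ranger 2.2.0 on mm10 with tdTomato and Cre added, and deposited these counts per gene and cell barcode, without normalization, for 1 HIRA WT and 1 HIRA KO library. Barcodes with under 100 genes, over 40000 UMIs or over 10% mitochondrial UMIs were removed (6 in HIRA WT and 18 in HIRA KO), and genes found in under 3 cells were not used for clustering. After scaling each cell to 10000 and taking logs, 2000 variable genes were picked. Of these 1996 were used, since the rest were among 18 genes held out (the 9 members, *Hira*, the sex-linked genes and the transgenes). Clustering joined the libraries and used Leiden at resolution 1 (30 components, 15 neighbours, seed 0). Among 13 lists of 6 to 12 markers, each cluster was named by the list of which most, as a share, was raised; a marker was raised when at least 10% of cells held it and its log2 ratio to the other cells, with 10 CPM added, was at least 1, and at least 3 had to be raised. The suffix "-like" marks names that rest on markers only.

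UMIs were summed per class and library. Genes with at least 20 UMIs in a class over both libraries were counted, and past 2-fold means a log2 ratio of at least 1 or at most −1. A count of 0 was given a limit of 3 counts. Thinning drew 2000 UMIs per cell and left out shallower cells. Likeness is Pearson r of log2(CPM + 10) over clusters with at least 30 cells, among genes with at least 200 UMIs. Named were all members, the label checks, the 3 genes most like each member, list genes past 2-fold, the 3 highest genes of a list and the leading genes of clusters; single clusters, pairs of members and markers were picked out after their values were seen. The members and the lists (paralogs, other crest factors, pigment targets, glial targets) were chosen with earlier results of these data known. Some values of the glial target list are not reported here.

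Alternatives were a filter of 500 genes per cell, resolutions of 0.5 and 2, each library clustered alone, naming by mean log2 fold, TMM factors, means over cells, thinned cells, Scrublet doublets left out, members allowed among the variable genes and no filter on low counts. Leaving out cells with UMIs of at least 3 of 12 melanoblast markers was added after seeing the data. The counting and interval code was tested on simulated data. Tools were scanpy 1.11.5 under Python 3.11.15 with igraph 0.11.9 and anndata 0.12.19 for clustering, scikit-image 0.26.0 for Scrublet, scipy 1.17.1 for intervals, pandas 2.3.3 and numpy 2.4.6 for tables, matplotlib 3.10.9 for figures, and edgeR 4.0.16 under R 4.3.3 for TMM. Gene positions came from GENCODE M21 and promoter windows from RefSeq.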

Additional observations from a re-analysis of the deposited data

Results flagged for a closer look

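*Tfap2a* stood out because its level was higher in HIRA KO in one class and lower in another. Its log2 ratio of HIRA KO to HIRA WT was 0.35 (0.04 to 0.65) in melanoblast-like cells, from 298 and 127 UMIs, and −0.99 (−1.98 to −0.03) in mesenchymal-like cells, from 24 and 17 UMIs. The difference between the classes was not tested. Under the alternatives the mesenchymal-like value ran from −1.33, with each library clustered alone, to 0.12, with cells thinned to 2000 UMIs. Of the 24 *Tfap2a* UMIs of HIRA WT mesenchymal-like cells, 17 lay in the 18 cells with UMIs of at least 3 melanoblast markers.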

How the results depend on the processing

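The number of members past 2-fold in glial-like cells was 0 as reported, and 1 with TMM factors, 1 with means over cells, 2 with thinned cells and 1 without cells that hold melanoblast markers, an alternative chosen after seeing the data. The share of all genes past 2-fold is not given under these alternatives, so their counts are not read as a result about the members. *Lef1*, at −0.97 as reported, was at −1.01 with TMM factors, −1.03 with means over cells and −1.16 without the marker cells, but at −0.38 with thinned cells, where *Pax3* (−1.11) and *Sox9* (−1.19) were past 2-fold. In mesenchymal-like cells the number was 2, and 1 without the cells that hold melanoblast markers, since *Pax3* was then no longer counted. The other 31 counts were within 1.5 times the reported ones. Of 264 ratios of single members under the alternatives, 257 lay within the counting interval of the reported ratio and 7 moved outside it. Among the 24 reported ratios, 17 kept their sign under every alternative and 7 did not, namely *Mitf* in all 3 classes and *Sox10*, *Sox9*, *Tfap2a* and *Tfap2b* in mesenchymal-like cells, none of them past 2-fold as reported. Of 108 levels, 95 lay within their intervals. The cause of the moves was not tested.

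No paired analysis was possible because the counts read here hold 1 library per genotype, and differences between embryos, sexes and genotypes cannot be told apart in them. Depth limits *Sox9* and *Lef1* in every class and *Foxd3* outside glial-like cells, and a share of cells with a UMI counts detection, not expression.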
